A study of Mus musculus with 8 samples.

Results

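Keratins and vimentin build the cytoplasmic intermediate filaments, and 7 of their genes were followed by name in NMuMG cells, a mouse mammary epithelial line: the keratin genes Krt7, Krt8, Krt18, Krt19, Krt14 and Krt80 and the vimentin gene Vim. They are 7 of the 18102 genes in the deposited table, and all 7 had a mean normalised read count of at least 10 over the 8 libraries, as did 12498 genes in all. Krt14 passed that minimum, with a mean of 11.6, only through the WT libraries under TGFβ. It had to differ between groups, so its values are given below as a description, with no p. The 8 libraries form 4 groups of 2. KO-labelled cells, named as an RREB1 knockout, received 100 pM TGFβ for 1.5 h or 2.5 µM SB505124 for 6 h, and WT cells received the same treatments. SB505124 blocks the kinase of the TGFβ type I receptor, so these libraries are not untreated, and the treatments differ in length. Rose and fell here mean higher or lower under TGFβ than under SB505124. With no untreated group, which treatment moved a gene cannot be told. All cells had been serum starved for 6 h. The KO columns share the code KO1, taken here to mean 1 clone, so differences between genotypes cannot be told apart from differences between this clone and its WT counterpart.

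Keratins are obligate heteropolymers: 1 type I chain pairs with 1 type II chain. Krt8 (type II) and Krt18 (type I) encode the pair found in simple epithelia, and Krt7 (type II) and Krt19 (type I) are further simple and ductal epithelial keratins. Krt14 (type I) is the basal and myoepithelial keratin, whose usual partner is Krt5, and Krt80 encodes a type II keratin of many epithelia. Vimentin forms filaments on its own, is typical of mesenchymal cells and of many cultured epithelial lines, and is widely used with the keratins to follow an epithelial-to-mesenchymal transition (EMT), a switch that TGFβ sets off in NMuMG cells.

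Libraries held 25144204 to 32143113 reads. Rreb1, the targeted gene, was not lower in the libraries labelled KO. Its normalised read count was 2481 and 2241 under TGFβ and 1327 and 1343 under SB505124 in KO-labelled cells, against 1959 and 1769 under TGFβ and 1055 and 1033 under SB505124 in WT cells. It was higher in KO-labelled cells by a log2 fold change of 0.34 ± 0.08 SE under TGFβ (limma adjusted p = 0.00184) and 0.35 ± 0.08 under SB505124 (limma adjusted p = 0.00153). A count summed over all exons cannot show a small edit, so KO stands below for what the labels call these libraries. The epithelial marker Cdh1 lay between 22443 and 26362 in KO-labelled and between 13123 and 17133 in WT libraries, whereas Epcam had no read in the 4 KO-labelled libraries and 4.01 to 36.6 in WT. The epithelial marker Cldn7 was at most 3.72, and Cldn3 and Esrp1 were not among the genes deposited. Of 7 luminal markers, 4 reached a mean of 10 (Krt8, Krt18, Krt19 and Gata3), and of 6 basal markers 2 did (Krt5 and Krt14). Krt8, Krt18, Krt19 and Krt14 are themselves among the genes followed here. The other luminal markers Elf5, Prlr and Csn2 were at most 3.72, 0.931 and 1.03. Trp63, the defining basal factor, stayed between 0 and 5.07. Defining markers of leukocytes (Ptprc, at most 11.6), endothelium (Pecam1, at most 1.93) and fat cells (Adipoq, at most 2.03) were at or near 0. Of the other markers of those types, Cd68, Cdh5 and Fabp4 reached 202, 27.4 and 13.96 at most.

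The promoters of Krt8 and Krt18 are shown because the transcripts of this pair rose together under TGFβ, and those of Krt7 and Vim because their transcripts were lower in KO-labelled cells. Windows run from 250 bases before to 50 after the RefSeq start (build GRCm38.p6). RefSeq windows were given for 5 of the 7 genes, all but Krt19 and Krt80. Capitals mark matches, on either strand, to TGANTCA (AP-1), CAGGTG (the E-box bound by SNAIL), GTCTAGAC (a SMAD palindrome), GGGCGG (bound by SP1) or TATAAA (bound by TBP). The windows are Krt8 at chr15:102004293-102004592 (minus strand), Krt18 at chr15:102027966-102028265 (plus), Krt7 at chr15:101412153-101412452 (plus) and Vim at chr2:13574061-13574360 (plus).
Krt8: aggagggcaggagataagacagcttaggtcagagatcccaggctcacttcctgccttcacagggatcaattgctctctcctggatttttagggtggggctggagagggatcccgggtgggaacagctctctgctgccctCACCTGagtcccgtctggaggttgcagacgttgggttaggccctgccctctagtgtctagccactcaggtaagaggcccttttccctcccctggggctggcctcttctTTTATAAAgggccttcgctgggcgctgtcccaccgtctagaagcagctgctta
Krt18: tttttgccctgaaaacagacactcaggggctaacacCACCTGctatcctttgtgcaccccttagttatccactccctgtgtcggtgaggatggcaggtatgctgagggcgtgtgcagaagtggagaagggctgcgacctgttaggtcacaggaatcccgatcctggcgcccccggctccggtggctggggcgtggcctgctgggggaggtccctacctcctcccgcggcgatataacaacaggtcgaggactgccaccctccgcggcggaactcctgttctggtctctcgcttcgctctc
Krt7: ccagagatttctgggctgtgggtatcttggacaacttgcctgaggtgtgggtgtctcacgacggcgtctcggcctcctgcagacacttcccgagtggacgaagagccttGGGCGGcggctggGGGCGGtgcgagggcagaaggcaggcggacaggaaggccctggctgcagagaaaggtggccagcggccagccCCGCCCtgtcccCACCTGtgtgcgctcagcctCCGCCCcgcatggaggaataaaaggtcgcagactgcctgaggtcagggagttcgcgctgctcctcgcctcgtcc
Vim: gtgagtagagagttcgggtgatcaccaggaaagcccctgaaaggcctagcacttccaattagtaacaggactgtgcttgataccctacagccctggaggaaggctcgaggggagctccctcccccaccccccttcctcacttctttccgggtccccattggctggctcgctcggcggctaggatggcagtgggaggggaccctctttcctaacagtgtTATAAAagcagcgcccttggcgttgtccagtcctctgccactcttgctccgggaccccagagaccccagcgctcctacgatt
CAGGTG was found once each in the Krt8, Krt18 and Krt7 windows, at -111, -214 and -44 from the start, and 20.2% of 32851 windows of the same length hold it. The Krt7 window held GGGCGG 4 times (35.7% of windows hold it at least once). TATAAA was found in the Vim window at -32 and, on both strands in overlapping matches, at the RefSeq start in the Krt8 window (13.6% of windows). No window of the 5, that of Krt14 included, matched TGANTCA (7.81% of windows) or GTCTAGAC (0.213%). A match is a string of letters and was not tested as a bound site.

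The simple epithelial pair was higher after 1.5 h of TGFβ than after 6 h of SB505124 in both genotypes. Krt8, which lies at chr15:101996698-102004482, had a normalised read count of 112999 and 115829 under TGFβ against 65145 and 74262 under SB505124 in KO-labelled cells. In WT cells it had 90525 and 86844 under TGFβ against 59377 and 64026 under SB505124. Within each genotype both TGFβ libraries lay above both SB505124 libraries. Krt8 rose 1.64-fold in KO-labelled cells (log2 fold change 0.72 ± 0.11 SE, limma adjusted p = 3.72e-05) and 1.44-fold in WT cells (0.52 ± 0.11, limma adjusted p = 0.000687). Krt18, at chr15:102028180-102032027, had 107127 and 109683 under TGFβ against 76633 and 78373 under SB505124 in KO-labelled cells. In WT cells it had 110723 and 118093 under TGFβ against 78908 and 83142 under SB505124. The treatments did not overlap in either genotype. Krt18 rose 1.40-fold in KO-labelled cells (0.48 ± 0.11, limma adjusted p = 0.00166) and 1.41-fold in WT cells (0.50 ± 0.11, limma adjusted p = 0.000931). The responses were not shown to differ between genotypes: the KO minus WT difference was 0.19 for Krt8 (95% interval -0.12 to 0.51, limma adjusted p = 0.564) and -0.01 for Krt18 (-0.33 to 0.30, limma adjusted p = 0.980). In bulk RNA, a change in the share of cells that express a gene and a change in transcript per cell cannot be told apart.

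**Figure D1:**
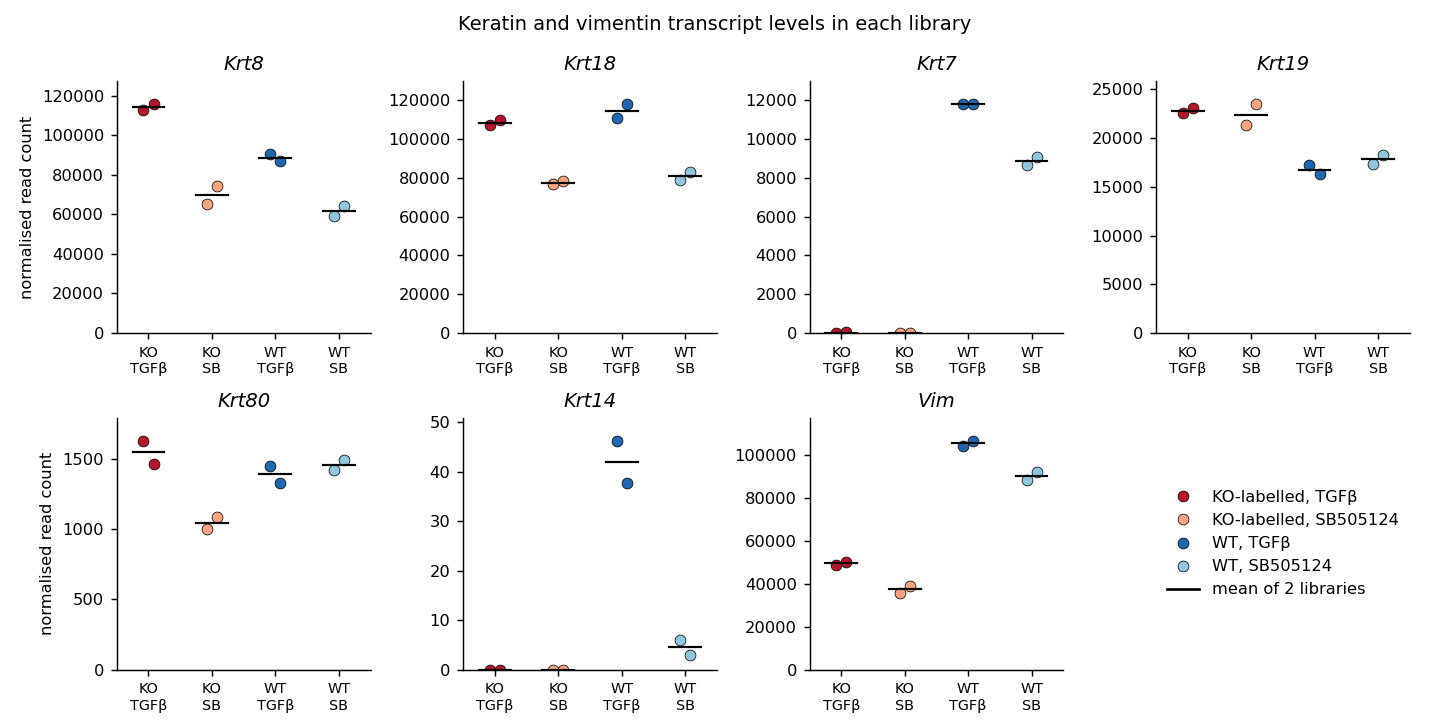
Normalised read counts (linear axes from 0) of the 7 genes in each library, with KO for KO-labelled and SB for SB505124; points are libraries and bars the mean of 2. Krt8 and Krt18 are higher under TGFβ in both genotypes, Krt7 and Krt14 are at or near 0 in KO-labelled cells, and Vim is lower there.

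Vimentin, the filament gene usually read as mesenchymal, rose under TGFβ in KO-labelled cells, and in WT cells the rise did not pass the test. Vim, at chr2:13573927-13582826, had 48822 and 50023 under TGFβ against 35656 and 39016 under SB505124 in KO-labelled cells. In WT cells it had 104038 and 106499.9 under TGFβ against 87998 and 91789.8 under SB505124. Again the treatments did not overlap within a genotype. The rise passed the test in KO-labelled cells (1.32-fold, 0.41 ± 0.10, limma adjusted p = 0.00413) but not without KO SB505124 replicate 1 (adjusted p = 0.123, in a range of 3.37e-07 to 0.123 over 16 alternatives). In WT cells the ratio was 1.17 (0.23 ± 0.10, limma adjusted p = 0.0720), which passed in 3 of 16 alternatives (range 0.00564 to 0.268). The difference of the Vim responses was 0.18 (-0.12 to 0.47, limma adjusted p = 0.568).

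Ratios between the genes show the same data within each library, on counts per kb of transcript. Vim stood at 0.168 in both KO-labelled libraries under TGFβ, relative to the sum of Krt8 and Krt18, and at 0.188 and 0.192 under SB505124. In WT libraries the ratio was 0.385 and 0.384 under TGFβ and 0.471 and 0.462 under SB505124. The ratio of vimentin to the keratin pair was thus lower under TGFβ in both genotypes, and lower in KO-labelled than in WT libraries under either treatment. The ratio of Krt8 to Krt18 was 0.774 and 0.775 under TGFβ and 0.624 and 0.695 under SB505124 in KO-labelled libraries, and 0.60 and 0.54 under TGFβ and 0.552 and 0.565 under SB505124 in WT libraries. KO-labelled libraries had the higher Krt8 to Krt18 ratio throughout, and in WT libraries the treatments overlapped. With 2 libraries a group these ratios are given without a test.

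**Figure D2:**
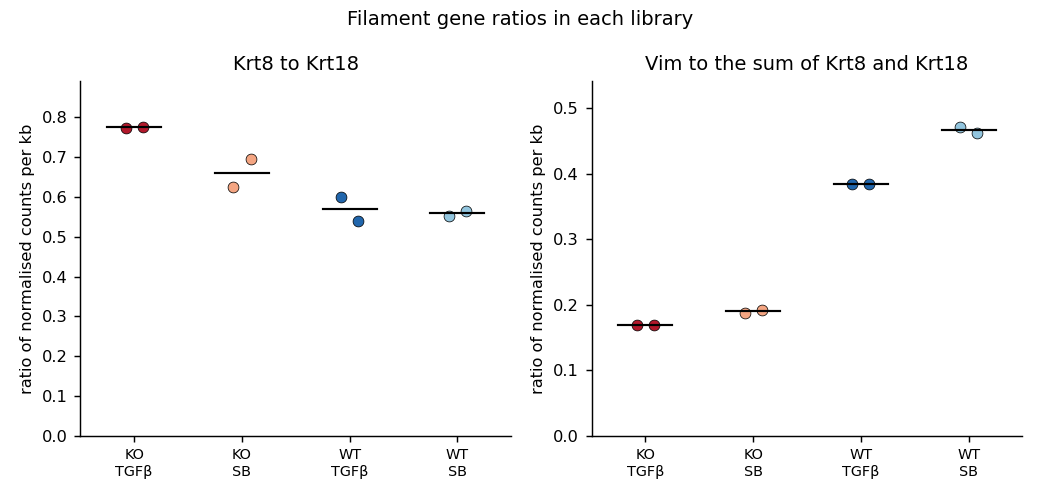
Ratios of normalised counts per kb of transcript in each library (points; bars are the mean of 2), for Krt8 to Krt18 and for Vim to the sum of Krt8 and Krt18. The Vim ratio lies at 0.168 to 0.192 in KO-labelled and at 0.384 to 0.471 in WT libraries.

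Krt80 was the 1 gene of the 7 whose TGFβ response differed between genotypes. Its normalised read count (chr15:101347444-101370162) was 1627 and 1461 under TGFβ against 1001 and 1084 under SB505124 in KO-labelled cells, and 1449 and 1326 under TGFβ against 1416 and 1489 under SB505124 in WT cells. The treatments were well separated in KO-labelled cells and overlapped in WT cells. Krt80 rose 1.48-fold in KO-labelled cells (0.56 ± 0.09, limma adjusted p = 6.53e-05), and the log2 fold change was -0.07 ± 0.09 in WT cells (limma adjusted p = 0.571). The difference of responses was 0.63 ± 0.13 (limma adjusted p = 0.00707). It did not pass without the variance trend (adjusted p = 0.122), without KO TGFβ replicate 1 (0.0817) or without WT SB505124 replicate 2 (0.0712), in a range of 9.29e-04 to 0.122 over 15 alternatives. Under SB505124 Krt80 was lower in KO-labelled than in WT cells (-0.48 ± 0.09, limma adjusted p = 0.000143), and under TGFβ the difference was 0.15 (95% interval -0.03 to 0.34, limma adjusted p = 0.142). The antisense gene Gm35853 overlaps Krt80 exons and Gm36026 those of Krt8, and their reads cannot be told apart without strand.

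Krt19, the type I keratin that lacks most of the tail domain, showed no TGFβ response past the threshold. It had 22588 and 23057 under TGFβ and 21290.3 and 23497 under SB505124 in KO-labelled cells, and 17207 and 16331 under TGFβ and 17332 and 18273 under SB505124 in WT cells. The treatments overlapped in KO-labelled cells, and in WT cells both TGFβ libraries lay below both SB505124 libraries. The fitted responses were 0.03 (95% interval -0.15 to 0.21, limma adjusted p = 0.832) in KO-labelled and -0.09 (-0.26 to 0.09, limma adjusted p = 0.438) in WT cells. Krt7 had 22.1 and 27.7 under TGFβ against 16.8 and 24.2 under SB505124 in KO-labelled cells, and 11806 and 11779 under TGFβ against 8683 and 9067 under SB505124 in WT cells. The treatments overlapped in KO-labelled cells and did not in WT cells. In WT cells it rose 1.33-fold (0.41 ± 0.14, limma adjusted p = 0.0229). In 6 of 16 alternatives Krt7 missed the threshold, 4 of these being fits that left out a WT library (adjusted p from 1.51e-06 to 0.151 over the 16). In KO-labelled cells the ratio was 1.22 on 50 reads against 46 (limma adjusted p = 0.130).

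Krt14, the basal keratin, was scarce, and its reads lay mostly in WT cells under TGFβ. It had 46.3 and 37.7 under TGFβ against 6.08 and 3.00 under SB505124 in WT cells, or 77 reads against 9, and no read in any of the 4 KO-labelled libraries. The ratio of the WT means was 9.25. No response can be given in KO-labelled cells, where both groups are at 0. Krt14, Krt16 and Krt17 are close copies, and reads of such genes may be split or dropped in counting.

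In all, 4 of the 7 genes rose and none fell under TGFβ in KO-labelled cells (Krt8, Krt18, Krt80 and Vim), where 15.1% of the 12498 genes tested were called higher and 15.8% lower, 30.9% in all. In WT cells 4 of 7 also rose and none fell (Krt8, Krt18, Krt7 and Krt14), against 20.2% of genes called higher and 23.2% lower, 43.3% in all. The median log2 fold change of the 7 was 0.41 in each genotype, beside -0.02 over all genes in KO-labelled and -0.01 in WT cells. Both medians include Krt14, at 3.01 in WT cells and with no read in KO-labelled cells. They are therefore descriptions only, and their likeness between genotypes is not a result. Without Krt14, 3 of 6 rose in WT cells. In the difference of responses 1 of 7 was higher in KO-labelled cells and none lower, where 2.25% of all genes were higher and 0.568% lower, 2.82% in all.

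**Figure D3:**
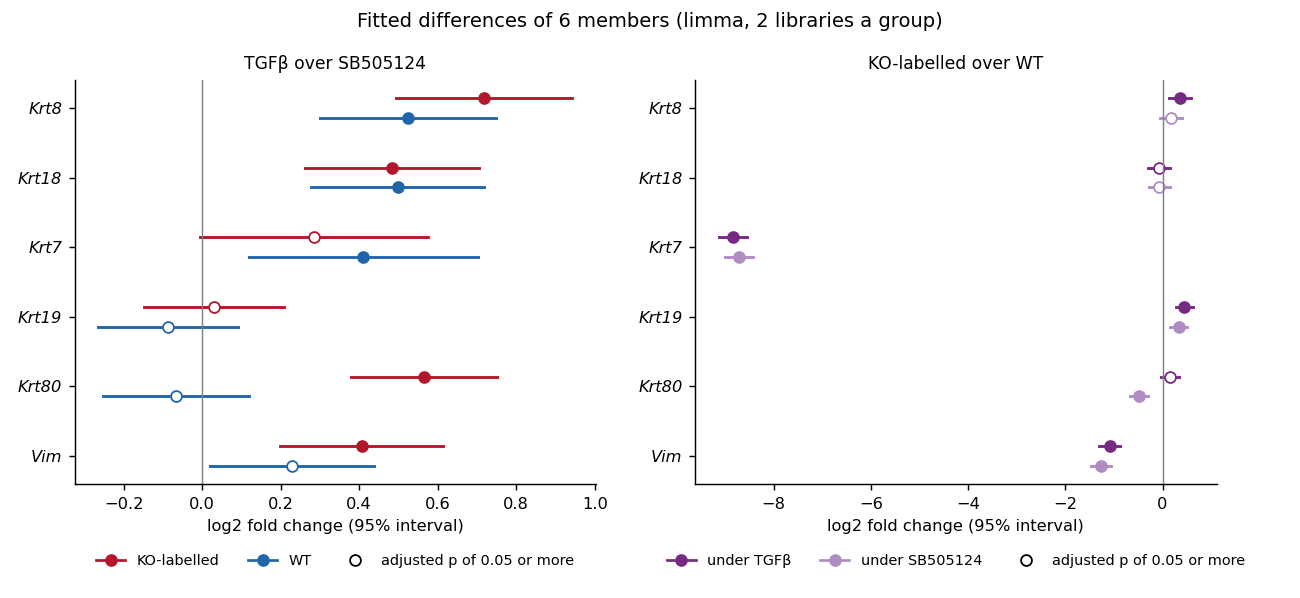
Fitted log2 fold changes with 95% intervals for 6 of the genes (Krt14 left out, since KO-labelled libraries had no read of it): TGFβ over SB505124 in each genotype on the left, KO-labelled over WT under each treatment on the right; filled points have an adjusted p under 0.05. Krt8 and Krt18 respond in both genotypes, Krt80 responds in KO-labelled cells, and Krt7 stands at -8.84 and -8.71 on the right.

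The largest difference between genotypes among the 7 was that of Krt7, which was nearly silent in KO-labelled cells. Its reads there numbered 23 and 27 under TGFβ and 18 and 28 under SB505124, or 0.188% to 0.272% of the WT mean under the same treatment. Krt7 was 473-fold lower in KO-labelled than in WT cells under TGFβ (log2 fold change -8.84 ± 0.14, limma adjusted p = 3.47e-19) and 434-fold lower under SB505124 (-8.71 ± 0.14, limma adjusted p = 4.51e-19). Per kb of transcript its mean was 6.08 in KO-labelled and 2880.4 in WT cells under TGFβ, at place 11205 in KO-labelled and 770 in WT cells among 11897 genes with a known length. The antisense transcript Gm671 overlaps Krt7 exons, and the library kit does not mark strand, so reads from either cannot be told apart.

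The genes around Krt7 on chromosome 15, looked at after the value of Krt7 was seen, were not all lower in KO-labelled cells. Krt7 lies at chr15:101411043-101430313, and Krt80, 40.9 kb away on one side, had means of 1544 and 1043 in KO-labelled cells under TGFβ and SB505124 against 1388 and 1452.5 in WT cells. On the other side the next measured gene is the hair keratin gene Krt83, 54.8 kb away. Krt83 had means of 1.03 and 0 in KO-labelled cells under TGFβ and SB505124, against 17.7 and 14.6 in WT cells, and was too low to be tested. Further along, Krt6a was lower and Krt5 and Krt76 were higher in KO-labelled cells. Krt8 and Krt18 lie 566 and 598 kb from Krt7.

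**Figure D4:**
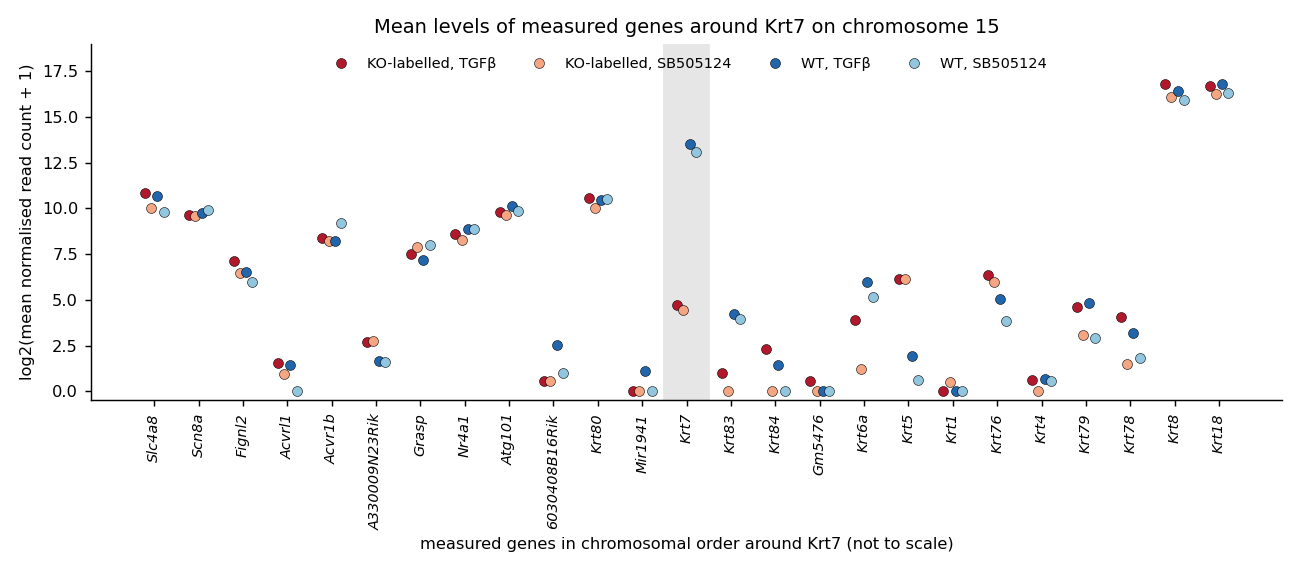
Mean levels (log2 of the normalised read count plus 1) of the 12 measured genes on each side of Krt7, in chromosomal order and not to scale, in the 4 groups. Krt7 (shaded) stands at 24.9 and 20.5 in KO-labelled cells, while Krt80 to its left has a mean of 1043 or more in every group.

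Vim was also lower in KO-labelled cells, Krt14 had no read there, and Krt19 was higher. Vim was lower by a log2 fold change of -1.09 ± 0.10 under TGFβ (limma adjusted p = 2.30e-08) and of -1.27 ± 0.10 under SB505124 (limma adjusted p = 3.05e-09). Its highest KO-labelled library, at 50023, lay below its lowest WT library, at 87998. The summed level of 6 fibroblast markers was 378 to 384 under TGFβ and 45.6 to 60.5 under SB505124 in KO-labelled libraries, against 512 to 668 under TGFβ and 161 to 163 under SB505124 in WT libraries. Of the 6, 3 reached a mean of 10 (Col1a1, Pdgfra and Dcn), and Thy1 and Lum were at or near 0 throughout. The 3 did not move alike. Col1a1 had 243 and 231 under TGFβ and 11.2 and 15.5 under SB505124 in KO-labelled libraries, against 498 and 349 under TGFβ and 37.5 and 33.0 under SB505124 in WT libraries. Pdgfra had 141 and 133 under TGFβ and 34.4 and 44.0 under SB505124 in KO-labelled libraries, against 111 and 123 under TGFβ and 38.5 and 34.0 under SB505124 in WT libraries. Unlike Vim, Pdgfra was thus not lower in KO-labelled libraries. Dcn was at most 0.864 in KO-labelled libraries, against 58.9 and 38.9 under TGFβ and 86.2 and 94.1 under SB505124 in WT libraries, where it was lower under TGFβ. The part of these markers in the Vim results was not tested. Krt14 had no read among 57866001 reads in KO-labelled cells under TGFβ and none among 62276558 under SB505124. With 3 reads over the group as the limit that a count of 0 allows, it was at least 28.2-fold lower than in WT under TGFβ and, against 9 WT reads, at least 3.38-fold lower under SB505124. Krt19 was higher by 0.45 ± 0.09 under TGFβ (limma adjusted p = 1.69e-04) and by 0.33 ± 0.09 under SB505124 (limma adjusted p = 0.00277; 0.0579 without KO SB505124 replicate 2, in a range of 7.48e-05 to 0.0579 over 16 alternatives).

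Of the simple epithelial pair, Krt8 differed between genotypes under TGFβ, and Krt18 passed the test under neither treatment. Krt8 was higher in KO-labelled cells by 0.37 ± 0.11 under TGFβ (limma adjusted p = 0.00601), and under SB505124 the difference was 0.17 (95% interval -0.05 to 0.40, limma adjusted p = 0.177). For Krt18 the differences were -0.08 under TGFβ (-0.30 to 0.14, limma adjusted p = 0.542) and -0.06 under SB505124 (-0.29 to 0.16, limma adjusted p = 0.631). In all, 2 of 7 genes were higher and 3 lower in KO-labelled cells under TGFβ, where 32.7% of all genes were called higher and 30.2% lower, 62.9% in all. Under SB505124 1 of 7 was higher and 4 lower, where 29.2% of all genes were called higher and 27.7% lower, 56.9% in all. Without Krt14, 2 of 6 were higher and 2 lower under TGFβ, and 1 was higher and 3 lower under SB505124.

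Levels per kb of transcript place the genes beside each other. In KO-labelled cells under TGFβ the order was Krt18 (75438), Krt8 (58434), Vim (22536), Krt19 (14481), Krt80 (503), Krt7 (6.08) and Krt14 (0). In WT cells under TGFβ it was Krt18 (79616), Vim (48002), Krt8 (45293), Krt19 (10640.3), Krt7 (2880.4), Krt80 (452) and Krt14 (24.7). Vim therefore ranked above Krt8 in WT and below it in KO-labelled cells. Krt18 stood at place 4 in KO-labelled and 5 in WT cells under TGFβ, among 11897 genes. The keratins of the 7 together took 0.842% and 0.880% of reads under TGFβ and 0.585% and 0.638% under SB505124 in KO-labelled libraries. In WT libraries they took 0.817% and 0.816% under TGFβ and 0.607% and 0.634% under SB505124. The genotypes thus overlapped under SB505124, and the treatments were separated in both.

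Of the 29 other keratin genes in the table, 8 reached a mean of 10. Of these 8, 5 (Krt5, Krt6a, Krt12, Krt16 and Krt79) had a mean under 10 in at least 1 group and passed through the groups where they are high, so the counts and medians of the 8 are descriptions only. Under TGFβ 4 of the 8 were called higher in KO-labelled cells (15.1% of all genes) and 6 in WT cells (20.2% of all genes), and none lower in either. The WT count includes Krt5, on 5 reads against 1. Their median log2 fold change was 0.92 in KO-labelled cells, beside -0.02 over all genes, and 1.39 in WT cells, beside -0.01. Krt20, a type I keratin of gut and bladder lining, was the most abundant. It had 11007 and 10685 under TGFβ against 3410.03 and 3395 under SB505124 in KO-labelled cells, and 5666 and 6298 under TGFβ against 2181 and 2376 under SB505124 in WT cells. Its TGFβ libraries all lay above its SB505124 libraries. Krt20 rose 3.19-fold in KO-labelled cells (log2 fold change 1.67 ± 0.08, limma adjusted p = 5.07e-12) and 2.63-fold in WT cells (1.39 ± 0.08, limma adjusted p = 9.53e-11). Krt12, known from the cornea, had TGFβ over SB505124 ratios of 5.30 in KO-labelled and 3.97 in WT cells, on means of at most 44.1. It passed the minimum only through the TGFβ libraries, so no p is given. Krt16, which skin induces on wounding, passed the minimum only through WT cells under TGFβ and is given with no p. It had 84 reads under TGFβ against 8 under SB505124 in WT cells, while KO-labelled libraries held 2 reads under TGFβ and 1 under SB505124. Its usual type II partner, Krt6a, had 28 reads under TGFβ and 3 under SB505124 in KO-labelled cells. The ratio was 10.3 there (exact 95% counting interval 3.20 to 53.2). In WT cells the ratio was 1.79, on 112 reads against 68. Krt6a passed the minimum only through the WT libraries, so no p is given. Krt10, a keratin of differentiating epidermis, had means of 131 to 163 and passed no test. The difference of responses passed for none of the 8 (limma). Among those with a mean of at least 10 in every group, the unadjusted limma p was under 0.05 for Krt20.

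Between genotypes the 8 went both ways, with 3 higher and 2 lower in KO-labelled cells under TGFβ (32.7% and 30.2% of all genes) and 3 higher and 3 lower under SB505124 (29.2% and 27.7% of all genes). Their median log2 fold change was -0.20 under TGFβ, beside 0.01 over all genes, and 0.03 under SB505124, beside 0.01. Krt5, the type II partner of Krt14 in basal cells, had 70.3 and 70.7 under TGFβ and 56.8 and 82.1 under SB505124 in KO-labelled libraries, against 2.11 and 3.43 under TGFβ and 1.01 and 0 under SB505124 in WT libraries. It was therefore present where Krt14 had no read and scarce where Krt14 was read. Krt5 passed the minimum only through the KO-labelled libraries, so no p is given. Under SB505124 its ratio was 139 on 156 reads in KO-labelled cells against 1 in WT cells (counting interval 24.5 to 5514). Krt16 had 2 reads in KO-labelled cells under TGFβ against 84 in WT cells (WT over KO-labelled ratio 46.4, counting interval 12.4 to 389). Krt76 was higher under TGFβ (1.345 ± 0.27, limma adjusted p = 0.000271) and SB505124 (2.09 ± 0.27, limma adjusted p = 2.31e-06). Krt20 was higher as well, by 0.86 ± 0.08 under TGFβ (limma adjusted p = 2.78e-08) and by 0.58 ± 0.08 under SB505124 (limma adjusted p = 4.86e-06).

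**Figure D5:**
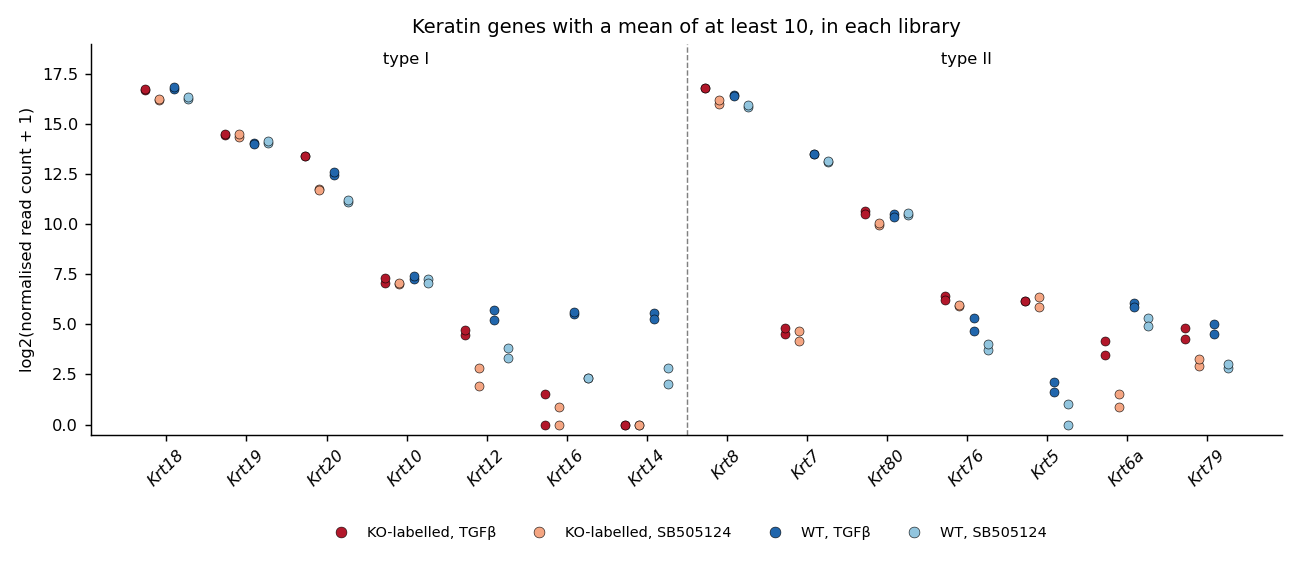
Levels (log2 of the normalised read count plus 1) of the 14 keratin genes with a mean of at least 10, as type I and type II, in each of the 8 libraries. Krt7, Krt14 and Krt16 are lower in KO-labelled cells, Krt5 is higher there, and Krt20 is higher under TGFβ in both genotypes.

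Genes for other intermediate filaments and for the proteins that anchor filaments gave the setting. Of 15 other filament genes, 8 were tested. Under TGFβ 4 rose and none fell in KO-labelled cells (median 0.475, beside -0.02 over all genes, of which 15.1% were called higher and 15.8% lower), led by the lamin genes Lmnb1 (0.57 ± 0.07, limma adjusted p = 6.83e-06) and Lmna (0.67 ± 0.12, limma adjusted p = 0.000324) and by Nes, which encodes nestin (0.61 ± 0.11, limma adjusted p = 0.000365). In WT cells 1 rose and 1 fell (median 0.19, beside -0.01), namely Synm (0.61) and Lmnb2 (-0.26), where 20.2% of all genes were called higher and 23.2% lower. Synm ranged from 0.38 to 0.85 over 16 alternatives (adjusted p 0.00165 to 0.160) and lost its call without WT TGFβ replicate 1 and without WT SB505124 replicate 2. Lmnb2 lost its call without either WT SB505124 library (adjusted p 0.0104 to 0.0807 over 16 alternatives), so that without WT SB505124 replicate 2 none of the 8 was called. Between genotypes 1 was higher and 5 lower in KO-labelled cells under TGFβ (median -0.54, beside 0.01), and 2 were higher and 6 lower under SB505124 (median -0.955, beside 0.01). These are 6 and 8 of 8 called in either direction, beside 62.9% of all genes under TGFβ and 56.9% under SB505124. Nefh, counted as lower under both treatments, passed the minimum only through the WT libraries. It had at most 3.72 in KO-labelled and 24.3 to 43.2 in WT libraries, so these counts and medians are descriptions only. Nes was lower by -5.91 ± 0.11 under TGFβ and by -6.42 ± 0.11 under SB505124 (limma adjusted p = 8.63e-18 and 1.93e-18), while Prph, the neuronal filament gene, was higher by 3.81 ± 0.23 and 3.60 ± 0.23 (limma adjusted p = 9.29e-11 and 2.07e-10).

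All 16 filament anchor genes were tested. Under TGFβ 7 rose and 2 fell in KO-labelled cells (median 0.28, beside -0.02) and 5 rose and 3 fell in WT cells (median 0.125, beside -0.01). Over all genes 30.9% were called in KO-labelled and 43.3% in WT cells. Jup, which encodes plakoglobin, rose by 1.32 ± 0.08 in KO-labelled cells (limma adjusted p = 1.87e-10) and by 0.75 ± 0.08 in WT cells (limma adjusted p = 5.61e-07). The hemidesmosome integrin genes Itga6 (0.59 ± 0.09, limma adjusted p = 2.99e-05) and Itgb4 (1.23 ± 0.11, limma adjusted p = 7.59e-08) rose in KO-labelled cells. Ppl fell in both genotypes, by -0.34 ± 0.08 in KO-labelled cells (limma adjusted p = 0.00307) and by -0.71 ± 0.08 in WT cells (limma adjusted p = 1.04e-06). Macf1 also fell in both (-0.32 in KO-labelled, -0.51 in WT). Between genotypes 6 were higher and 5 lower under TGFβ (median -0.003, beside 0.01) and 3 higher and 7 lower under SB505124 (median -0.19, beside 0.01). These shares are near those over all genes, 62.9% under TGFβ and 56.9% under SB505124. Dsp, which encodes the desmosomal keratin anchor desmoplakin, was higher in KO-labelled cells under TGFβ (1.22 ± 0.08, limma adjusted p = 4.03e-10) and SB505124 (0.96 ± 0.08, limma adjusted p = 1.23e-08). The plakophilin gene Pkp3 was lower under TGFβ (-2.56 ± 0.21, limma adjusted p = 3.94e-09) and SB505124 (-3.25 ± 0.21, limma adjusted p = 1.39e-10). Of 6 filament partners and chaperones, 4 rose under TGFβ in KO-labelled cells (median 0.365, beside -0.02, where 15.1% of all genes rose). In WT cells 6 rose (median 0.63, beside -0.01, where 20.2% rose), and none fell in either genotype. Both counts include Sfn, which passed the minimum only through the WT libraries under TGFβ. The counts and medians of the 6 are therefore descriptions only. Without WT SB505124 replicate 1, 3 were called in WT cells. Among those that rose were Tgm2 (0.55 in KO-labelled, 0.65 in WT) and Sqstm1 (0.43 in KO-labelled, 0.62 in WT). Between genotypes 1 of the 6 was higher and 2 lower in KO-labelled cells under TGFβ, and 2 were higher and 2 lower under SB505124 (medians -0.12 and 0.10, beside 0.01 over all genes in each). Sfn, with 0.931 to 15.4 in KO-labelled libraries, is counted as lower under both treatments, so these counts are descriptions as well. Without KO TGFβ replicate 2 the count under TGFβ was 1 in either direction, and over all genes 62.9% were called under TGFβ and 56.9% under SB505124. The small heat shock protein gene Cryab was lower under TGFβ (-3.08 ± 0.10, limma adjusted p = 9.56e-15) and SB505124 (-2.56 ± 0.10, limma adjusted p = 1.41e-13). Sqstm1 was higher under TGFβ (0.29 ± 0.08, limma adjusted p = 0.00385) and SB505124 (0.475 ± 0.08, limma adjusted p = 4.74e-05). Hspb1 was higher under SB505124 (0.90 ± 0.24, limma adjusted p = 0.00308), and its difference of -0.20 under TGFβ did not pass (limma adjusted p = 0.480).

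The genes whose levels ran most like those of the 7 over the 8 libraries were found by Pearson r of log2 values among 10484 or 10485 genes with a mean of at least 50. These were Micu2 for Krt7 (r = 1.000), Fbxo31 for Krt8 (0.996), Map2k1 for Krt18 (0.997), Jund for Krt19 (0.996), Fancc for Krt14 (0.992), Dusp5 for Krt80 (0.958) and Lad1 for Vim (0.998). The second most like were Trf for Krt7, Ripk4 for Krt8, Plek2 for Krt18, Mcat for Krt14, Fosl2 for Krt80 and Cdca4 for Vim. All points are the same 8 libraries in 4 groups that share their differences, so no p is given. Micu2, like Krt7, was nearly silent in KO-labelled cells, with means of 2.50 under TGFβ and 2.23 under SB505124 against 1247 and 1069.7 in WT cells.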

How the data were processed

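RNA was sequenced from 8 libraries, 2 in each of 4 groups, made per the labels' protocols with the TruSeq RNA v2 kit, whose reads carry no strand. The authors deposited 1 signal value per gene and library, read counts divided by a size factor. The submitters' processing notes name FastQC 0.11.5, HTSeq 0.6.1p1, DESeq2 3.4 and mm10; the aligner is not given in the sources used here. All values were whole multiples of 1 step per library (100% within 0.01 reads), which gave back the reads. Genes with a mean of at least 10 were tested with limma 3.58.1 (R 4.3.3) on log2(value + 1), which understates changes of low genes, with a variance trend and 4 group means over 8 libraries. Benjamini-Hochberg adjustment ran over 12498 genes, with a threshold of 0.05. Whether replicates came from separate cultures is not labelled, and the p-values then reflect the scatter of these samples alone, which may be technical. Coordinates and lengths (longest principal transcript) come from GENCODE M21 on GRCm38, the build of mm10, where 94.7% of symbols matched 1 gene. Alternatives were a pseudocount of 8, no filter, no trend, 4 libraries, a replicate block, TMM scaling, edgeR 4.0.16 and DESeq2 1.42.0 on recovered reads, and each library left out. Folds are ratios of group means, log2 fold changes are fitted values. Counting intervals and floors (3 reads over a group) cover counting error only. The 7 genes were named; of each list up to 3 genes with the smallest p per comparison, the 6 most abundant other keratins, and 2 most similar genes were named by rule, except 1 similar gene that is not reported here. The genes and lists were chosen with earlier results of these data known. The fit was tested on simulated counts.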

Additional observations from a re-analysis of the deposited data

Results flagged for a closer look

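For 5 genes the TGFβ response differed between genotypes by a test of the difference itself, where 2.82% of all genes were called. These were 1 of the 7 genes, 1 of 8 other filament genes and 3 of 16 filament anchors. None of the 8 other keratins or the 6 partners and chaperones passed. Those outside the 7 were picked for having the smallest p of their lists. On the log2 scale, KO minus WT, the difference was 0.63 for Krt80 (limma adjusted p = 0.00707) and 0.79 for Itga6 (0.000942). It was 0.77 for Itgb4 (0.00959), 0.56 for Jup (0.00795) and 0.40 for Lmnb1 (0.0485). All 5 rose in KO-labelled cells, and Jup (0.75) and Itgb4 (0.45) also rose in WT cells. The calls were lost in 3 of 15 alternatives for Krt80 (adjusted p 9.29e-04 to 0.122), in 1 for Itga6 (2.65e-07 to 0.0994), in 6 for Itgb4 (1.17e-05 to 0.228), in 4 for Jup (3.58e-04 to 0.131) and in 9 for Lmnb1 (0.0115 to 0.260). Under SB505124, levels in KO-labelled cells were lower than in WT by -0.48 for Krt80, -0.92 for Itga6, -1.12 for Itgb4 and -0.77 for Lmnb1, and the Jup difference of -0.18 did not pass (limma adjusted p = 0.0612).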

How the results depend on the processing

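Over the alternatives run, 501 fold changes of the 7 genes kept their direction and their side of the threshold. Of the others, 13 lost and 7 gained the call, and 8 changed sign without a call in either fit. Krt14, whose calls are not results, is included in these totals, with 2 of the lost and 2 of the gained calls. Sign changes were, for the difference of responses, Krt18 (0.00769 with TMM scaling, -0.0599 to 0.0331 with a library left out) and Krt7 (-0.378 to 0.127 with a library left out), and, for TGFβ in KO-labelled cells, Krt19 (-0.0421 to 0.100 with a library left out). Outside the 7, Krt5 also changed sign there (-0.216 to 0.308 with a library left out). Genes called for the difference of responses numbered 352, against 134 with no filter, 47 with no variance trend and 141 to 1050 with a library left out (150 without KO TGFβ replicate 1, 1050 without WT TGFβ replicate 1, 141 and 170 without WT SB505124 replicates 1 and 2). Of the 7 genes, 2 were called there with a pseudocount of 8 and 0 to 1 with a library left out. Genes called for TGFβ in KO-labelled cells numbered 3864, and 2318 to 4398 with a library left out (2318 without KO TGFβ replicate 2, 2331 without KO SB505124 replicate 1). Of the 7, 3 to 5 were called there and 2 to 4 in WT cells, where without either TGFβ library Krt14 was not tested and Krt7 was lost. Krt7 in KO-labelled cells passed without KO TGFβ replicate 1 (limma adjusted p = 0.0490) or KO SB505124 replicate 2 (0.00164). The cause of these changes was not tested.

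The labels do not say whether same-numbered libraries belong together. Deviations of same-numbered libraries correlated at 0.198 between the WT treatments and 0.102 between the KO-labelled treatments. Across genotypes they correlated at -0.199 to -0.025. With a replicate block, 252 genes were called for the difference of responses, 5359 (5416 without the block) for TGFβ in WT and 3658 (3864) in KO-labelled cells, 7103 (7117) between genotypes under SB505124 and 7835 (7865) under TGFβ. Vim in WT cells passed with the block (limma adjusted p = 0.0276). Genes with few reads, such as Krt14, Krt16 and Krt5, are limited by depth.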
